A study of Homo sapiens with 4 samples.

Results

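The genes described here encode 10 subunits of the SWI/SNF chromatin remodelers BAF and PBAF, and they were taken by symbol from the 60708 genes of the deposited count table: SMARCA4, SMARCA2, ARID1A, ARID1B, ARID2, PBRM1, SMARCB1, SMARCC1, SMARCC2 and SMARCE1. The data are 4 TT-seq libraries of HEK293, a human embryonic kidney line. In all of them the endogenous RPB1, the largest subunit of RNA polymerase II, carries a degron, a tag through which auxin triggers destruction of the protein. Cells were transfected transiently with RPB1 that has either a wild-type C-terminal domain (CTD) of 52 repeats (52X WT, 2 libraries) or one with T4A, threonine 4 changed to alanine, in each repeat (52X T4A, 2 libraries), received auxin 48 h later and kept it for a further 48 h. RNA made during 20 min of 4-thiouridine (4-SU) labeling was then pulled down and sequenced by strand, introns included, so that a gene's level here reflects the making of RNA more than its store. The comparison asks whether these genes were transcribed differently when Thr4 of the CTD was replaced.

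SWI/SNF complexes use ATP to slide or eject nucleosomes and so open promoters and enhancers. A BAF complex holds 1 ATPase, SMARCA4 (BRG1) or SMARCA2 (BRM), on a core that includes SMARCB1, SMARCC1, SMARCC2 and SMARCE1. BAF adds ARID1A or ARID1B, and PBAF adds ARID2 and PBRM1. Subunit genes of this family are often mutated in cancer, and loss of one ATPase or ARID1 paralog leaves cells dependent on the other.

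Libraries held from 33188536 to 45605027 counts, and 31993 to 33850 genes had at least 1 count. 52X T4A replicate 1 stood apart. Its log2 levels correlated with those of the other libraries at 0.974 to 0.979, against 0.988 to 0.991 among those 3. Its difference from the 52X WT mean fell with the GC content of the gene (r = -0.44 across 23162 genes, a description, since genes of one library are not independent), against r = 0.07 in 52X T4A replicate 2, and its median log2 difference was -0.70 over the tenth of genes with a GC content of at least 56.7%, against 0.10 in 52X T4A replicate 2. The tested members are therefore also given with each library's trend on GC content removed, an alternative chosen after seeing the data, and SMARCA4, the ratio of the ATPase genes and the neighboring genes also without this library. Among genes with 1 to 20 counts, 82.1 to 86.2% had an even count, which counting both mates of each read pair would give. The counting settings are not given in the sources used here, and the counting error may be larger than the counts imply. Levels are relative to all labeled RNA of a library, so a change common to all genes would not show, and in these transiently transfected cells fewer cells that make an RNA and less RNA per cell cannot be told apart. POLR2A, the gene of the replaced protein, had 9640 and 8720 normalized CPM (counts relative to library size, scaled by edgeR's TMM factors) in 52X WT and 7492 and 8083 in 52X T4A. These reads do not separate the endogenous gene from the plasmids and the degron acts on protein, so they check no label. POLR2A had a log2 fold change of -0.24 (edgeR adjusted p = 0.659). It was called lower in 52X T4A by DESeq2 (-0.25, adjusted p = 0.0490) and in the edgeR fit without the GC trend (-0.25, adjusted p = 0.00175). The latter fit with the replicate number as a block also called it (-0.25, edgeR adjusted p = 0.000114). All of these are among the fits that called SMARCA4 below. The part of RPB1 RNA levels in the results was not tested. Of 7 HEK293 markers, 6 had 80 or more counts in every library and NEFM, a neurofilament gene, had 0 to 6. Markers of other cell types had at most 102 counts (COL1A1). The sets overlapped, since the HEK293 marker PAX2 had 80 to 96 counts. Per kb of gene PAX2 had a mean of 0.025 normalized CPM. This was below COL1A1 (0.131), GFAP (0.040) and ALB (0.038) and above the other markers of other cell types that had counts. INS was listed at 0, but only 12 bp of it lie in no other gene of its strand, so its 0 says nothing, and PECAM1 was not found in the table by symbol.

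No member passed an adjusted p of 0.05 (edgeR's quasi-likelihood test, Benjamini-Hochberg over all 23321 tested genes), where 1 gene in all, or 0.00429%, did. An unadjusted p below 0.05 was found for 2 members, both lower in 52X T4A, as for 8.02% of tested genes, and DESeq2 called 1 member, as 10.1% of the genes to which it gave an adjusted p. SMARCA4 was the member with the most negative change (-22.8% in 52X T4A). It passed the threshold once the trend on GC content was removed, a setting that called 2341 genes or 10.0% of those tested. The other ATPase gene, SMARCA2, had near-equal levels in both groups. Of the 10 members 9 could be tested, and 8 of these 9 had a log2 fold change below 0. Their median was -0.08, against -0.00076 over all tested genes.

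Both ATPase genes were well measured. The 100 bases before the RefSeq start sites nearest to the table's gene starts (GRCh38.p14, plus strand) are shown for them, and for the core gene SMARCB1, since SMARCA4 and SMARCB1 were the 2 members with the smallest unadjusted p and SMARCA2 is the paralog of SMARCA4. Capitals mark GC boxes (GGGCGG or its reverse complement CCGCCC), the core motif of Sp1-family factors.
SMARCA4, chr19:10960930-10961029: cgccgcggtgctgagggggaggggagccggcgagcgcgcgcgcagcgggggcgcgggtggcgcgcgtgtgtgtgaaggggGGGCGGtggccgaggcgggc
SMARCA2, chr9:2015247-2015346: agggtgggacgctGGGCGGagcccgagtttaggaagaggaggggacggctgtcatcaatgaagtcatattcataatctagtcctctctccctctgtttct
SMARCB1, chr22:23786866-23786965: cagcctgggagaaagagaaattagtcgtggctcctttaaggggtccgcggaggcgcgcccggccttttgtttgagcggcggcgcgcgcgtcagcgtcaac
The SMARCA4 stretch was 84% G or C with 18 CpG sites. That of SMARCB1 was 64% with 13, and that of SMARCA2 53% with 4. The order of SMARCB1 and SMARCA2 was the reverse in the 300-base windows described further below. The SMARCA2 start shown lies 35057 bp inside the table's gene, which begins further upstream.

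SMARCA4 (chromosome 19 of GRCh38, 10960932 to 11079426, plus strand) encodes the ATPase BRG1. It had 180 and 157 normalized CPM in 52X WT replicates 1 and 2 and 120 and 140 in 52X T4A replicates 1 and 2, from 4018 to 7045 counts. Both 52X T4A libraries lay below both 52X WT libraries, and 52X T4A replicate 1 was the lowest. The log2 fold change was -0.37 (SE 0.11, 95% interval -0.63 to -0.12, n = 2 libraries in each group), with an edgeR p of 0.00915 and an adjusted p of 0.235. An unadjusted p below 0.05 with a lower level in 52X T4A was found for 8.02% of tested genes, and 24.7% of them had both 52X T4A libraries below both 52X WT libraries.

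The size of this change depended on which library was left out. Without 52X T4A replicate 1 the log2 fold change of SMARCA4 was -0.26 (edgeR adjusted p = 0.395), and without 52X T4A replicate 2 it was -0.51 (adjusted p = 0.000614), in a fit that called 13.8% of 25097 tested genes. It was -0.28 without 52X WT replicate 1 (adjusted p = 0.649). All 15 alternative fits gave a value below 0, from -0.51 to -0.26, and 4 of them passed the threshold. One of these was DESeq2 (-0.38, adjusted p = 0.0148), which called 10.1% of the 8808 genes to which it gave an adjusted p.

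With a GC content of 52.5%, SMARCA4 was the most GC-rich of the tested members, and the median tested gene had 44.3%. With each library's trend on GC content removed, its levels were 170 and 163 adjusted CPM in 52X WT and 128 and 134 in 52X T4A. The groups again did not overlap, and the replicates within each lay closer together than before. The log2 fold change in that fit was -0.34 (SE 0.05, 95% interval -0.46 to -0.23, edgeR adjusted p = 0.00375), so the direction was kept, the size changed little and the error was smaller than the 0.11 of the fit with TMM factors alone. Removing the trend also removes any effect of T4A that itself follows GC content, and the part of GC content in the change was not tested.

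SMARCA2 (chromosome 9, 1980290 to 2193624, plus strand) encodes the ATPase BRM. Its levels were 195 and 195 normalized CPM in 52X WT and 207 and 189 in 52X T4A. The 52X T4A libraries lay on either side of the 52X WT libraries. This gave a log2 fold change of 0.02 (SE 0.09, 95% interval -0.19 to 0.23, edgeR adjusted p = 0.929), and its sign turned in 3 of 15 alternative fits.

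**Figure D1:**
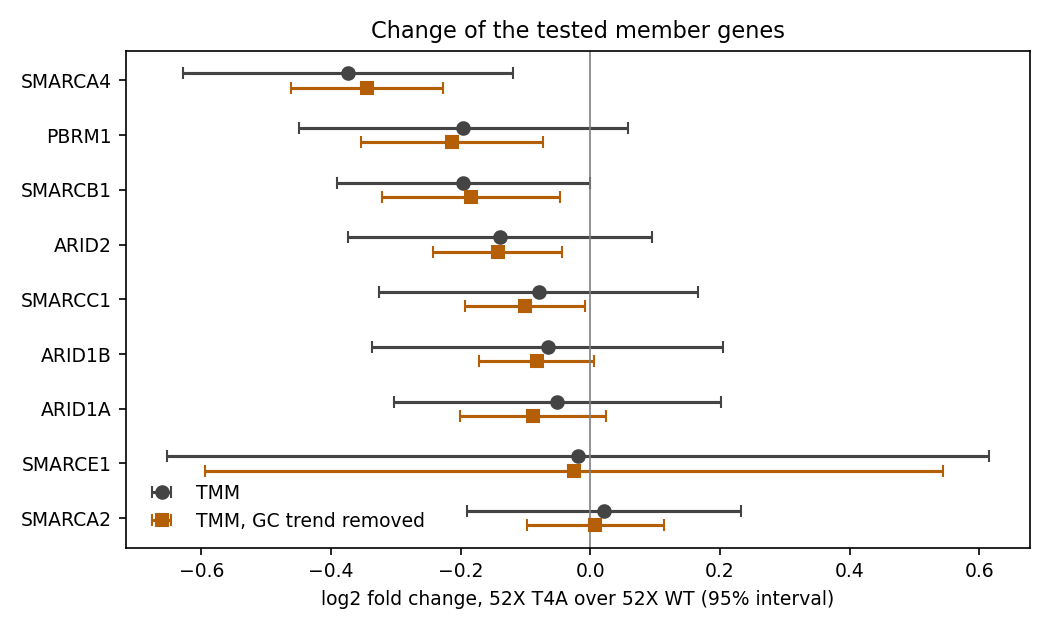
log2 fold change of each tested member gene, 52X T4A over 52X WT, from edgeR with TMM factors (circles) and with each library's trend on GC content also removed (squares), with 95% intervals (2 libraries in each group). The interval of SMARCA4 lies below 0 in both fits, and that of SMARCE1 is the widest.

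Since either ATPase can fill the same place in BAF, their ratio was taken within each library, where library scaling cancels. SMARCA4 had 0.922 and 0.806 counts per SMARCA2 count in 52X WT and 0.579 and 0.742 in 52X T4A. Both 52X T4A ratios lay below both 52X WT ratios. The mean log2 ratio differed by -0.39 (SD 0.14 in 52X WT and 0.25 in 52X T4A), with an exact two-sided permutation p of 0.333, the smallest that 2 against 2 libraries allow, and 0.667 after adjustment over the 2 pairs computed. Without 52X T4A replicate 1 the difference was -0.22, and without replicate 2 it was -0.57. Per kb of the table's gene span, SMARCA4 was above SMARCA2 in every library, by 1.04 to 1.66 times. The lowest of these ratios was in 52X T4A replicate 1. The SMARCA2 span begins 35057 bp before the nearest RefSeq start, and a shorter span would lower the ratios. Ratios over a shorter span were not computed, so the order in that library may depend on the span used.

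The ARID1 genes encode the DNA-binding subunits that set BAF apart from PBAF. ARID1A (chromosome 1, 26693236 to 26782104, plus strand) had 374 and 343 normalized CPM in 52X WT and 367 and 325 in 52X T4A. ARID1B (chromosome 6, 156776020 to 157210779, plus strand) had 626 and 650 in 52X WT and 644 and 575 in 52X T4A. The groups overlapped for both genes. Once the GC trend was removed they still overlapped for ARID1A but not for ARID1B. ARID1B then had 637 and 645 adjusted CPM in 52X WT and 615 and 596 in 52X T4A. The log2 fold change was -0.05 for ARID1A (SE 0.11, 95% interval -0.30 to 0.20, edgeR adjusted p = 0.842) and -0.07 for ARID1B (SE 0.12, 95% interval -0.34 to 0.20, adjusted p = 0.809).

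The ratio of ARID1A to ARID1B counts was 0.598 and 0.527 in 52X WT and 0.570 and 0.565 in 52X T4A. Both 52X T4A ratios lay between the 52X WT ratios. The mean log2 ratio differed by 0.016 between the groups (exact two-sided permutation p = 1, 1 after adjustment), and by -0.076 without 52X WT replicate 2. ARID1B had more counts, but over a span of 434.8 kb against 88.9 kb, and per kb of gene ARID1A was 2.58 to 2.93 times as high as ARID1B.

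**Figure D2:**
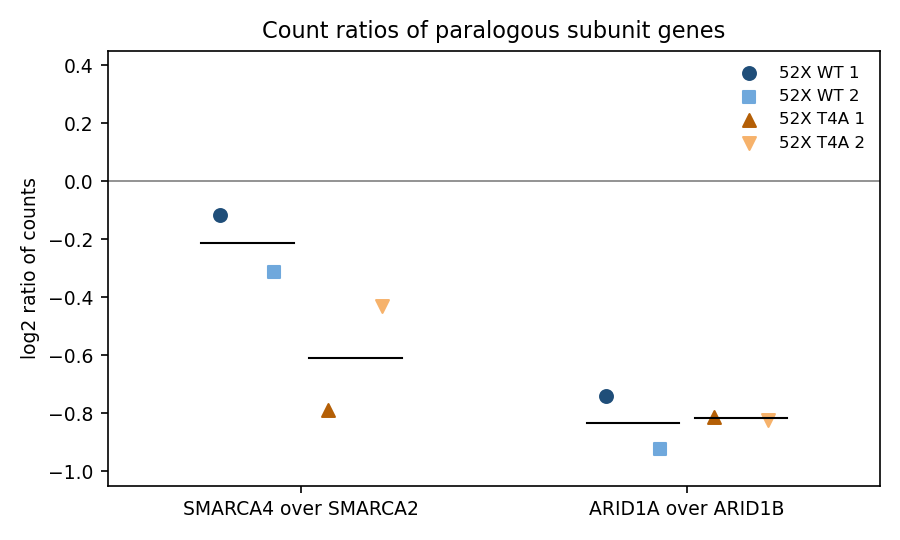
log2 ratio of counts of SMARCA4 over SMARCA2 and of ARID1A over ARID1B in each of the 4 libraries (points), with the mean of each group of 2 (lines). The 52X T4A ratios of the ATPase genes lie below both 52X WT ratios, and those of the ARID1 genes lie between them.

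ARID2 and PBRM1 encode the subunits that mark PBAF. ARID2 (chromosome 12, 45729706 to 45908040, plus strand) had 304 and 335 normalized CPM in 52X WT and 299 and 281 in 52X T4A. Both 52X T4A libraries were below both 52X WT libraries, with the nearest libraries at 304 and 299. ARID2 had a log2 fold change of -0.14 (SE 0.10, 95% interval -0.37 to 0.09, edgeR adjusted p = 0.531). It was also -0.14 once the GC trend was removed (adjusted p = 0.0704), and the libraries of 52X T4A (287 and 292 adjusted CPM) again lay below those of 52X WT (315 and 324).

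PBRM1 (chromosome 3, 52545352 to 52685917, minus strand), whose protein reads acetylated histones through bromodomains, had 142 and 159 normalized CPM in 52X WT and 143 and 120 in 52X T4A. The groups overlapped, and 52X T4A replicate 2 was the lowest library. Once the GC trend was removed the groups did not overlap, with 145 and 158 adjusted CPM in 52X WT and 137 and 124 in 52X T4A. For PBRM1 the log2 fold change was -0.20 (SE 0.11, 95% interval -0.45 to 0.06, edgeR adjusted p = 0.421). Its size depended on the library left out: -0.32 without 52X T4A replicate 1 and -0.09 without 52X T4A replicate 2. It was -0.29 without 52X WT replicate 1 and -0.13 without 52X WT replicate 2. With the trend on GC content removed it was -0.21 (adjusted p = 0.0592), and with the replicate number as a block in that fit it passed the threshold at -0.21 (adjusted p = 0.0408), as 12.9% of tested genes did. The check made here, with the GC trend left in, gave no sign that same-numbered libraries are pairs and cannot exclude it.

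On the opposite strand, UQCC5, a gene for an assembly factor of the respiratory chain, overlaps 24.1% of PBRM1 in a tail-to-tail arrangement. UQCC5 had 66.0 and 71.2 normalized CPM in 52X WT and 86.6 and 81.4 in 52X T4A. Both 52X T4A libraries lay above both 52X WT libraries, while for PBRM1 the groups overlapped before the GC trend was removed but not after. UQCC5 had a log2 fold change of 0.29 (SE 0.09), with an edgeR p of 0.0112 and an adjusted p of 0.241, and 7.45% of tested genes had an unadjusted p below 0.05 with a higher level in 52X T4A. Both 52X T4A libraries were above both 52X WT libraries for 24.8% of tested genes, UQCC5 included, and for no member. UQCC5 had 0.25 without 52X T4A replicate 1 (adjusted p = 0.394) and 0.26 without the GC trend (adjusted p = 0.0270). It was named after its values were seen. In the other opposite-strand overlaps the table's gene starts lie more than 1 kb apart, with 4761 bp between those of GNL3 and PBRM1. Their log2 fold changes were 0.10 for GNL3 at PBRM1, 0.09 for MYL6 at SMARCC2 and -0.43 for DERL3 at SMARCB1 (edgeR adjusted p = 0.620, 0.703 and 0.588). Without 52X T4A replicate 1 these were 0.03, -0.05 and 0.02, so DERL3 and MYL6 changed sign.

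SMARCB1 (chromosome 22, 23786931 to 23838009, plus strand) encodes the core subunit that contacts the nucleosome and is lost in rhabdoid tumors. It had 90.04 and 85.2 normalized CPM in 52X WT and 76.4 and 76.6 in 52X T4A. The groups did not overlap and the 52X T4A libraries were nearly equal. The gene's GC content was 51.4%. With the GC trend removed, its levels were 86.0 and 88.6 adjusted CPM in 52X WT and 79.4 and 74.3 in 52X T4A. Its log2 fold change was -0.20 (SE 0.09), with an edgeR p of 0.0493 and an adjusted p of 0.323. With the trend on GC content removed it was -0.18 (95% interval -0.32 to -0.05, adjusted p = 0.0867), and no alternative fit called it.

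SMARCC1 (chromosome 3, 47585269 to 47782106, minus strand), a scaffold subunit, had 447 and 446 normalized CPM in 52X WT and 444 and 401 in 52X T4A. The 52X T4A libraries were lower, replicate 1 by a small margin. SMARCC1 had a log2 fold change of -0.08 (SE 0.11, 95% interval -0.32 to 0.17, edgeR adjusted p = 0.742). Once the GC trend was removed it was -0.10 (adjusted p = 0.157), while ARID1A had -0.09 (adjusted p = 0.297), ARID1B -0.08 (adjusted p = 0.221), SMARCA2 0.01 (adjusted p = 0.936) and SMARCE1 -0.02 (adjusted p = 0.964) in that fit.

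The last 2 core genes could hardly be measured, because reads that fall in 2 genes of the same strand seem to be left out. This rule is inferred from the pattern of zeros given below, since the counting settings are not given. SMARCC2 (chromosome 12, 56162359 to 56189567, minus strand), the paralog of SMARCC1, is listed at 0 in all 4 libraries. Its whole span of 27209 bp lies inside ENSG00000258199, an lncRNA gene of the same strand that had 18, 8, 2 and 10 counts. SMARCE1 (chromosome 17, 40624962 to 40648654, minus strand), a DNA-binding core subunit, shares 89.9% of its span with ENSG00000264058, which is annotated as protein-coding and had 11 to 24 counts. This left 2394 bp, or 10.1% of SMARCE1, at the downstream end of the gene, in which reads could be counted. The same held across the table, where all 705 protein-coding genes with no base of their own on their strand are listed at 0, against 4.28% of the 16923 with at least 90% of their span to themselves. The zeros of SMARCC2 thus say nothing of its transcription, and the ratio of SMARCC1 to SMARCC2 was not computed.

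**Figure D3:**
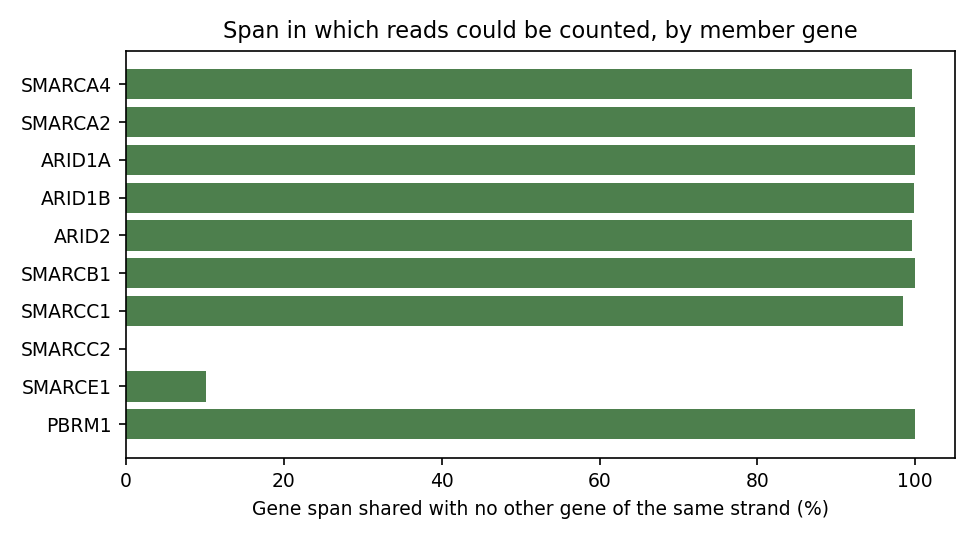
Share of each member gene's span, in percent, that overlaps no other gene of the same strand and in which reads could be counted (bars, from 0). SMARCC2 has no such base and SMARCE1 has 10.1%, while the other members have 98.5 to 100%.

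From its remaining stretch SMARCE1 had 74 and 82 counts in 52X WT and 67 and 59 in 52X T4A, which is 1.89 and 1.86 normalized CPM against 1.996 and 1.71. The 52X T4A libraries lay on either side of the 52X WT libraries. The log2 fold change of -0.02 had a wide interval (SE 0.28, 95% interval -0.65 to 0.61, edgeR adjusted p = 0.978), so a difference of the size seen for SMARCA4 was not detectable at this depth. Without TMM factors it was 0.03. These values are for the downstream end of the gene alone.

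Levels of different members are compared per kb of gene span, as the mean over all 4 libraries. The span of SMARCA2 includes 35057 bp before its nearest RefSeq start, so its place in the order may depend on the span used. ARID1A was the highest at 3.96 normalized CPM per kb (SD 0.25), 1.80 times SMARCC1 at 2.21 (SD 0.11). ARID2 (1.71) and SMARCB1 (1.61) followed, then ARID1B (1.43), SMARCA4 (1.26, SD 0.22), PBRM1 (1.005) and SMARCA2 (0.921, SD 0.035). The ranges over the libraries were apart between ARID1A and SMARCC1, between SMARCC1 and ARID2 and between SMARCB1 and ARID1B. They overlapped between ARID2 and SMARCB1, and from ARID1B down to SMARCA2 each gene overlapped the next. SMARCE1 had 0.0786 per kb of span but 0.778 per kb of its countable stretch, and it was the lowest of the members with a countable stretch on either scale. That stretch is the downstream end of SMARCE1 alone, while the other members compared were counted over nearly their whole span. Both SMARCA4 and PBRM1 varied more between libraries than SMARCA2 did.

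**Figure D4:**
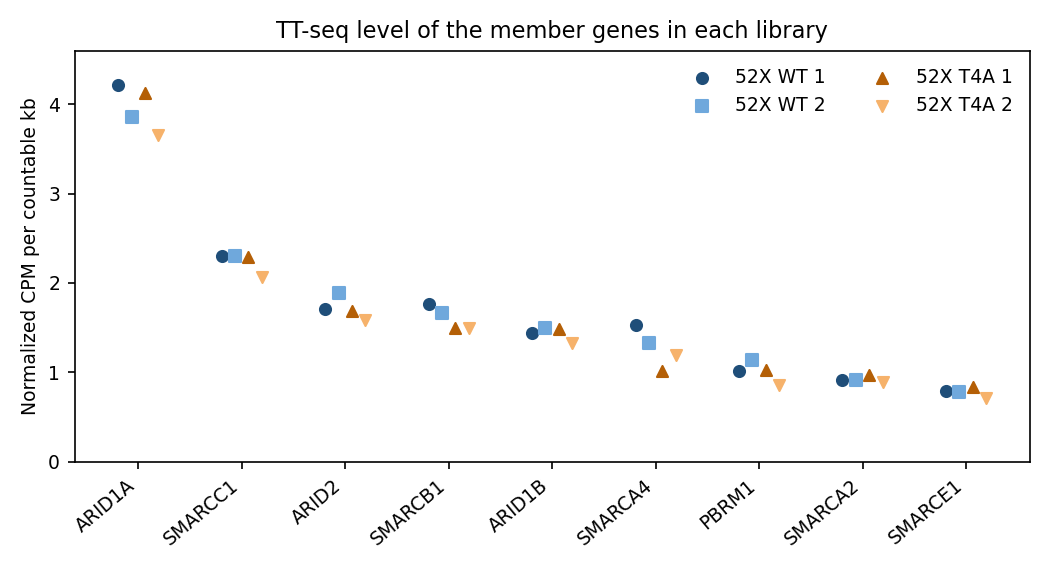
Normalized CPM per kb of countable span for the 9 members with a countable stretch, in each of the 4 libraries (points), ordered by the mean. ARID1A is the highest in every library, and for SMARCA4 both 52X T4A libraries lie below both 52X WT libraries.

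Over the 9 tested members the median log2 difference from the 52X WT mean was -0.01 in 52X T4A replicate 1 and -0.15 in replicate 2. Once the GC trend was removed these medians were -0.09 and -0.13. The trend was fitted to each library on its own, so its removal brings libraries that differ along GC content together. The part of GC content in the difference between the replicates was not tested. SMARCA4 stood at -0.49 in replicate 1 and -0.26 in replicate 2 before the trend was removed. Groups did not overlap for 4 members, all with 52X T4A below 52X WT: SMARCA4, ARID2, SMARCB1 and SMARCC1. That is 4 of 9, beside the 24.7% of all tested genes, and the unadjusted p was below 0.05 for 2 of 9, beside 8.02%. Once the GC trend was removed, both 52X T4A libraries also lay below both 52X WT libraries for ARID1B and PBRM1. The share of all tested genes was not computed for that setting. The members are long genes, with a median span of 140.6 kb over those tested against 30.8 kb over all tested genes.

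**Figure D5:**
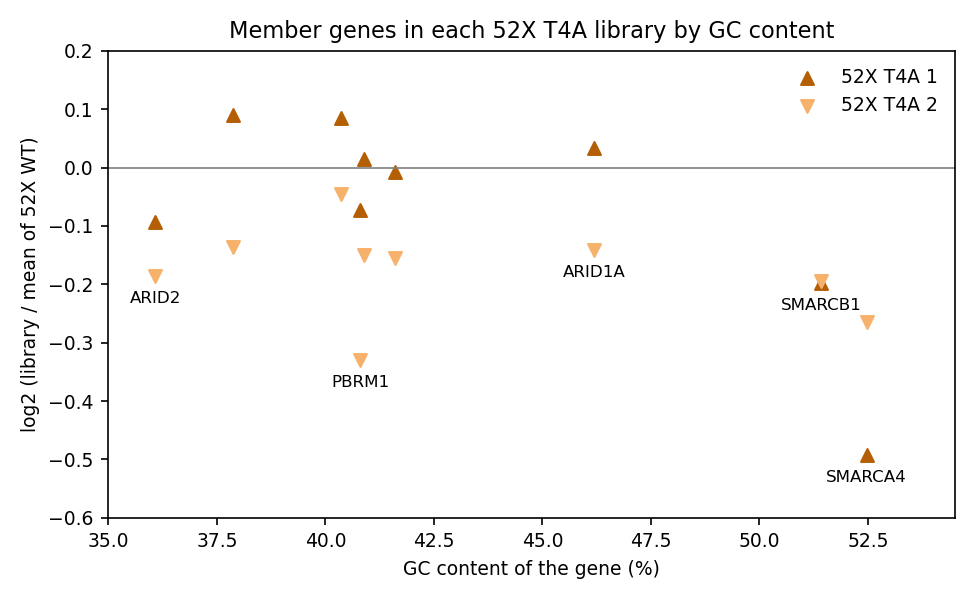
log2 of each 52X T4A library over the 52X WT mean for the 9 tested member genes, against the GC content of the gene in percent. In replicate 1 SMARCA4 lies lowest at -0.49, and in replicate 2 PBRM1 lies lowest at -0.33.

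The other subunits of SWI/SNF complexes gave a like picture. Of 21 such genes 20 were tested and none passed the adjusted threshold, while 4 had an unadjusted edgeR p below 0.05 and a lower level in 52X T4A and 0 a higher one. DESeq2 called 2, beside its share of 10.1%. Their median log2 fold change was -0.10. BICRA, a subunit gene of the GBAF complex, is listed at 0 and lies wholly inside ENSG00000268746 on its strand. With the trend on GC content removed, 4 of the 20 passed, all lower, beside 10.0% of all tested genes: BCL11A, BCL7A, ACTB and DPF2.

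The lowest was BCL11A, a zinc finger subunit that represses fetal globin genes in red cells, with 102 and 100 normalized CPM in 52X WT and 72.8 and 69.3 in 52X T4A. The groups lay well apart, with close replicates. Its log2 fold change was -0.51 (SE 0.09), with an edgeR p of 0.000259 and an adjusted p of 0.150, and it was -0.55 with the GC trend removed (adjusted p = 0.000998). ACTB, for the actin that SWI/SNF complexes share with the cytoskeleton, had 257 and 274 in 52X WT and 154 and 227 in 52X T4A. Both 52X T4A libraries were lower, but replicate 1 by far the more, and the log2 fold change was -0.48 (SE 0.16, adjusted p = 0.255), or -0.22 without that library (adjusted p = 0.498). Of those with a mean of at least 50 counts the 2 highest, BICRAL and BCL11B, had log2 fold changes of 0.08 each (adjusted p = 0.664 and 0.833).

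Among the genes of these lists, those whose pattern over the 4 libraries lay nearest to that of SMARCA4 were BCL7A, BCL7C and SMARCD2. They are SWI/SNF subunit genes, as were 20 of the 47 genes ranked. Their root mean square distances were 0.037, 0.053 and 0.072 on the log2 scale, from levels with the GC trend left in. BCL7A had 40.01 and 33.7 normalized CPM in 52X WT and 25.1 and 29.2 in 52X T4A. As with SMARCA4, the highest library was 52X WT replicate 1 and the lowest 52X T4A replicate 1. Its log2 fold change was -0.44 (SE 0.13, edgeR adjusted p = 0.231), and -0.33 without 52X T4A replicate 1. BCL7C had -0.27 and SMARCD2 -0.29 (edgeR adjusted p = 0.420 and 0.415). With the GC trend removed BCL7A had -0.40, BCL7C -0.29 and SMARCD2 -0.16 (edgeR adjusted p = 0.0170, 0.167 and 0.439). The part of GC content in the likeness to SMARCA4 was not tested.

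Remodelers of the ISWI, CHD, INO80 and related families were set beside the members as the genes nearest in role. Of 28 such genes 27 were tested and none passed, with 3 lower and 1 higher at an unadjusted edgeR p below 0.05 and a median log2 fold change of -0.09. DESeq2 called 4, beside the same 10.1%. RUVBL1, an AAA+ ATPase of INO80 and related complexes, had 127 and 115 normalized CPM in 52X WT and 79.5 and 85.9 in 52X T4A. It lay well below 52X WT in both 52X T4A libraries, at a log2 fold change of -0.55 (SE 0.09, adjusted p = 0.150). SMARCAL1, an annealing helicase at stalled forks, had -0.50 (adjusted p = 0.204). In the other direction HELLS, a remodeler needed for DNA methylation, had 148 and 160 in 52X WT and 205 and 188 in 52X T4A, a log2 fold change of 0.35 (SE 0.09, adjusted p = 0.218), from the 38.9% of its span that could be counted. SMARCA5, the ISWI ATPase, had 0.18 (adjusted p = 0.388). With the trend on GC content removed, 6 of the 27 passed, beside 10.0% of all tested genes: RUVBL1, SMARCAL1, CECR2, RSF1 and CHD7 lower and HELLS higher. The members' median of -0.08 thus lay beside medians of -0.10 and -0.09 in these related lists.

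At the members' own starts, ARID1A and SMARCE1 each have an lncRNA gene that begins within 1 kb on the other strand. The one at ARID1A (ENSG00000260063, start 895 bp from that of ARID1A) had 4.98 and 4.22 normalized CPM in 52X WT and 3.66 and 3.44 in 52X T4A, a log2 fold change of -0.37 (SE 0.21, edgeR adjusted p = 0.424). The one at SMARCE1 (ENSG00000278834, 354 bp away) had 2.61 and 3.02 in 52X WT and 1.34 and 2.63 in 52X T4A, a log2 fold change of -0.50 (SE 0.34, adjusted p = 0.495). Without 52X T4A replicate 1 the values were -0.41 at ARID1A and -0.09 at SMARCE1 (adjusted p = 0.434 and 0.922), and once the GC trend was removed they were -0.37 and -0.46 (adjusted p = 0.247 and 0.331). Both 52X T4A libraries were below both 52X WT libraries at ARID1A, while at SMARCE1 52X T4A replicate 2 lay between the 52X WT libraries. Small genes inside SMARCA4, ARID1B, ARID2, SMARCC1 and PBRM1 on their strand are listed at 0. They have no base of their own on that strand, so these zeros say nothing of their transcription.

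RefSeq start sites were matched for 7 of the 10 members, all but ARID2, SMARCC1 and SMARCC2. In the 300-base windows at the start nearest to the table's gene start, the median GC content was 65.3%, against 58.7% over all 35116 RefSeq promoters. The median number of CpG sites was 30, against 14. The GC box, searched on both strands, was in 6 of 7 windows, against 44.95% of all promoters. The TATAAA motif was in none of the 7, against 11.5%, and the ETS core CCGGAAG only in that of SMARCA2, against 10.3%. The SMARCA4 window held 55 CpG sites and was 81.3% G or C. That of SMARCA2 held 30 and was 66.7%, and that of SMARCB1 held 25 and was 61.7%. The low GC content of SMARCA2 beside SMARCB1 was thus limited to the shorter stretch shown above.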

How the data were processed

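TT-seq reads of 4 libraries were processed by the authors into a deposited table of raw counts per gene for 60708 Ensembl genes. The submitters' processing notes name FastQC, cutadapt 4.6, STAR 2.7.11b, Picard, deepTools 3.5.6 and GRCh38. Listed lengths equal gene spans, so introns were counted. GC content was taken by stable gene identifier from GRCh37 gene spans, gene names likewise (58742 genes matched), and promoters from RefSeq.

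Counts were tested with edgeR 4.0.16 (TMM, filterByExpr, quasi-likelihood F test, R 4.3.3), checked on simulated data, with Benjamini-Hochberg adjustment over all 23321 tested genes. Alternatives were DESeq2 1.42.0, other scaling and filters, the replicate number as a block, loess offsets on gene length or GC content (lowess span 0.3), counts halved and leaving out each library. Members and lists were chosen with earlier results of these data known. Named genes were the members, POLR2A, genes sharing a member's start or strand and span, the 2 highest and 2 lowest of each related list with a mean count of at least 50, and the 3 nearest to SMARCA4. Genes called under an alternative and opposite-strand overlaps were named in addition, after their values were seen.

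Same-numbered libraries deviated from their group means with a correlation of 0.00498, and the numbers were not taken as pairs. The levels used still held each library's trend on GC content, so this value cannot show that the libraries were unpaired. The labels do not say that libraries came from separate cultures, and p-values measure only the spread between them.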

Additional observations from a re-analysis of the deposited data

How the results depend on the processing

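Against 1 gene called in all and 0 members, 0 other SWI/SNF subunit genes and 0 other remodeler genes (edgeR, at an unadjusted p below 0.05 3607, 2, 4 and 4 genes), DESeq2 called 892, 1, 2 and 4. The replicate block called 533, 0, 1 and 1, no filter 150, 0, 1 and 1, and removal of the length trend 2 in all, or 0 with the replicate block. 2 settings were chosen after seeing the data: removal of the GC trend, which called 2341, 1, 4 and 6, and the same with the replicate block, which called 3000, 2, 4 and 7. Leaving out each library gave 0 to 3466 in all (3466 without 52X T4A replicate 2, 333 without 52X T4A replicate 1, 3 without 52X WT replicate 1), 0 to 1 members, 0 to 5 other subunit genes and 0 to 2 other remodeler genes. The cause was not tested. SMARCA4 stood at -0.38 on the log2 scale with the replicate block (adjusted p = 0.201), and the block changed no call of a member in the fit with TMM factors alone. Added to the fit with the GC trend removed, it brought PBRM1 past the threshold (adjusted p = 0.0592 without the block and 0.0408 with it).

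Signs turned where changes were near 0: for SMARCA2 with no filter (-0.0039), without 52X WT replicate 2 (-0.0024) and without 52X T4A replicate 1 (-0.039), for ARID1A without 52X WT replicate 1 (0.0025) and without 52X T4A replicate 2 (0.019), and for SMARCE1 without TMM factors (0.030), with counts halved, chosen after seeing the data (0.025), and without 52X T4A replicate 2 (0.075). Leaving out each library, SMARCA2 ranged from -0.039 to 0.069, ARID1A from -0.13 to 0.019 and SMARCE1 from -0.13 to 0.075. The ARID1A to ARID1B log2 ratio difference ranged from -0.076 (without 52X WT replicate 2) to 0.107 when each library was left out. The median of the members stayed below 0 in all alternatives, from -0.15 to -0.02. The number of genes called thus moved with the library left out and, with all 4 kept, with the fit. SMARCE1 and SMARCC2 are limited by overlapping genes, not by depth alone.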
